A study of Mus musculus with 14 samples.

Results

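*Ccl24* (listed as CCL24), *Ccl11* (CCL11), *Ccl6* (CCL6), *Ccl9* (CCL9), *Ccl17* (CCL17) and *Ccl22* (CCL22) are 6 of the 24982 genes counted in colonic macrophages of mice with and without *Il10ra* and *Ccr2*. They were chosen by family: the eotaxins *Ccl24* and *Ccl11*, the neighbouring pair *Ccl6* and *Ccl9*, and the CCR4 ligands *Ccl17* and *Ccl22*. *Ccl24* and *Ccl9* were also selected on their difference between the genotypes that lack *Il10ra*, so for both genes that difference is described here and not tested. All 6 passed the filter on low counts, and all 6 are accounted for below.

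CC chemokines are small secreted proteins with adjacent cysteines near the amino terminus, and they attract leukocytes by way of G protein-coupled receptors. The eotaxins act on CCR3, the receptor of eosinophils. CCL6 and CCL9 are rodent chemokines that signal mainly through CCR1, and CCL17 and CCL22 attract CCR4-bearing T helper 2 and regulatory T cells. In macrophages, *Ccl24*, *Ccl17* and *Ccl22* are known as genes that IL-4 and IL-13 can induce.

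Each library was made from the sorted lamina propria macrophages of the colon and cecum of 1 mouse, aged 5 weeks. The gate took live leukocytes (CD45+) with CD64, CD11b and MHC class II on their surface and without Ly6G, CD103 or Ly6C, and the cDNA was made with SmartSeq v4. All mice were C57BL/6 and carried *Cdcs1*, a colitis susceptibility locus, the controls included. WT mice carried *Cdcs1* alone (mice 4, 5, 10, 11 and 13). IL10RAKO mice were also *Il10ra* -/- (mice 1, 2, 7 and 8), DKO mice were *Il10ra* -/- and *Ccr2* -/- (mice 3, 9, 12 and 14), and the CCR2KO mouse was *Ccr2* -/- alone (mouse 6). Both alleles are lost in the whole body, so the deletion is not limited to macrophages. Elsewhere in the study, the mice called WT were heterozygous for both alleles, while the labels of these libraries name *Cdcs1* only.

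Genotypes were compared over 12 libraries (n = 4 mice each). WT mouse 11, which the authors' normalized table does not hold, and the CCR2KO mouse entered no comparison, and their values are given as values. Levels are in CPM (the reads on a gene relative to the size of the library after TMM scaling), and a gene was said to pass when its adjusted p-value in the quasi-likelihood test of edgeR was under 0.05. Between 13085287 and 21216468 reads were counted per library, against 12153000 in WT mouse 11, where 11670 genes had a read. *Il10ra* was at 217 to 379.6 CPM in the WT mice compared, and at 4.89 to 11.2 CPM in IL10RAKO against 3.41 to 7.59 in DKO macrophages. *Ccr2* was at 513.7 to 702.1, 361 to 627.2 and 3.92 to 6.68 CPM in the same order. The 10 macrophage markers were present in all 14 libraries, *Csf1r* at 1998 CPM or more and *C1qa* at 829 or more. Against WT, 2 of these 10 were higher and 0 lower in IL10RAKO (*H2-Ab1* and *Fcgr1*), while in DKO 1 was higher (*Mertk*) and 2 were lower (*Cx3cr1* and *Adgre1*).

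The members lie on 3 chromosomes (GRCm38, the mm10 assembly), and *Ccl6* and *Ccl9* are adjacent. *Ccl24* lies at chr5:135569937-135573049, 6.37 kb from *Ccl26*, and *Ccl11* at chr11:82057823-82062955. *Ccl6* occupies chr11:83587882-83593087 and *Ccl9* chr11:83572919-83578636, both on the minus strand with 9.25 kb between them. *Ccl22* (chr8:94745590-94751699) and *Ccl17* (chr8:94810453-94812036) are 58.8 kb apart on the plus strand. Promoter sequences of RefSeq (GRCm38.p6, from 250 bases before to 50 after the start) were matched for 4 of the 6 members, *Ccl6*, *Ccl9*, *Ccl17* and *Ccl22*. The promoters of *Ccl6* and *Ccl9* are shown because these neighbours were compared with each other below, and a local alignment of both had 59 identical bases over 74 columns (79.7%). Its score was 71, against 17 to 22 for the other 5 pairs of promoters. The stretch covers chr11:83593073-83593146 in *Ccl6* and chr11:83578588-83578654 in *Ccl9*. It is printed 5′ to 3′ on the minus strand, with the bases identical in the alignment in capitals.
Ccl6: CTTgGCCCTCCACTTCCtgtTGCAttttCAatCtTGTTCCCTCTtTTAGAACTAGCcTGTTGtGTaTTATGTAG
Ccl9: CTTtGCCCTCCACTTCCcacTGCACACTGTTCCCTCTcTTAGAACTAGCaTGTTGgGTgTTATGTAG
The alignment begins 59 bases before the annotated start of *Ccl6* and 18 bases before that of *Ccl9*, so the shared bases reach past the start in both genes.

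The promoter of *Ccl17* is shown because the promoters were searched for the palindromes that STAT factors bind, and it was the only 1 of the 4 with a match. Both strands were searched for TTCNNNNGAA, which STAT6 prefers, and for TTCNNNGAA, which other STAT factors prefer. In *Ccl17* the first was found 154 bases and the second 99 bases before the start. Of 32851 promoters, 6.95% hold the first and 8.3% the second. The stretch at chr8:94810283-94810372 is printed on the plus strand with both matches in capitals.
Ccl17: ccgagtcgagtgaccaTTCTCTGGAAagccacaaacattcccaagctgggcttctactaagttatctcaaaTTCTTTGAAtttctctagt
The letters AGGAAG, a form of the sequence that ETS factors bind, were found in *Ccl6* (2 matches), *Ccl17* and *Ccl22*, and in 35.4% of all promoters. Shorter forms were not searched for, so *Ccl9* is without a match to these letters only.

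Per kilobase of exon, *Ccl6* had the highest mean of the 6 genes in each genotype, although its range overlapped that of *Ccl22* in IL10RAKO and DKO, and the order below it changed. In WT macrophages *Ccl6* had a mean of 340.9 CPM per kb (range 266 to 443.2), *Ccl9* 99.0, *Ccl24* 23.4, *Ccl22* 14.9, *Ccl17* 6.11 and *Ccl11* 5.44. *Ccl6* and *Ccl9* stood apart there, while the ranges of the other 4 overlapped from each to the next. In IL10RAKO macrophages *Ccl22* came second, at 102.1 CPM per kb, with a range that overlapped that of *Ccl6* (mean 159.3). *Ccl24* fell from the third to the fifth place, at 1.33 CPM per kb. In DKO macrophages *Ccl6* (88.3) and *Ccl22* (84.2) again overlapped, and each of the lower genes stood apart from the next: *Ccl9* at 22.5, *Ccl17* at 11.2, *Ccl24* at 6.71 and *Ccl11* at 0.294. Lengths are those of all annotated exons, so a gene with long rare exons is placed too low.

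**Figure D1:**
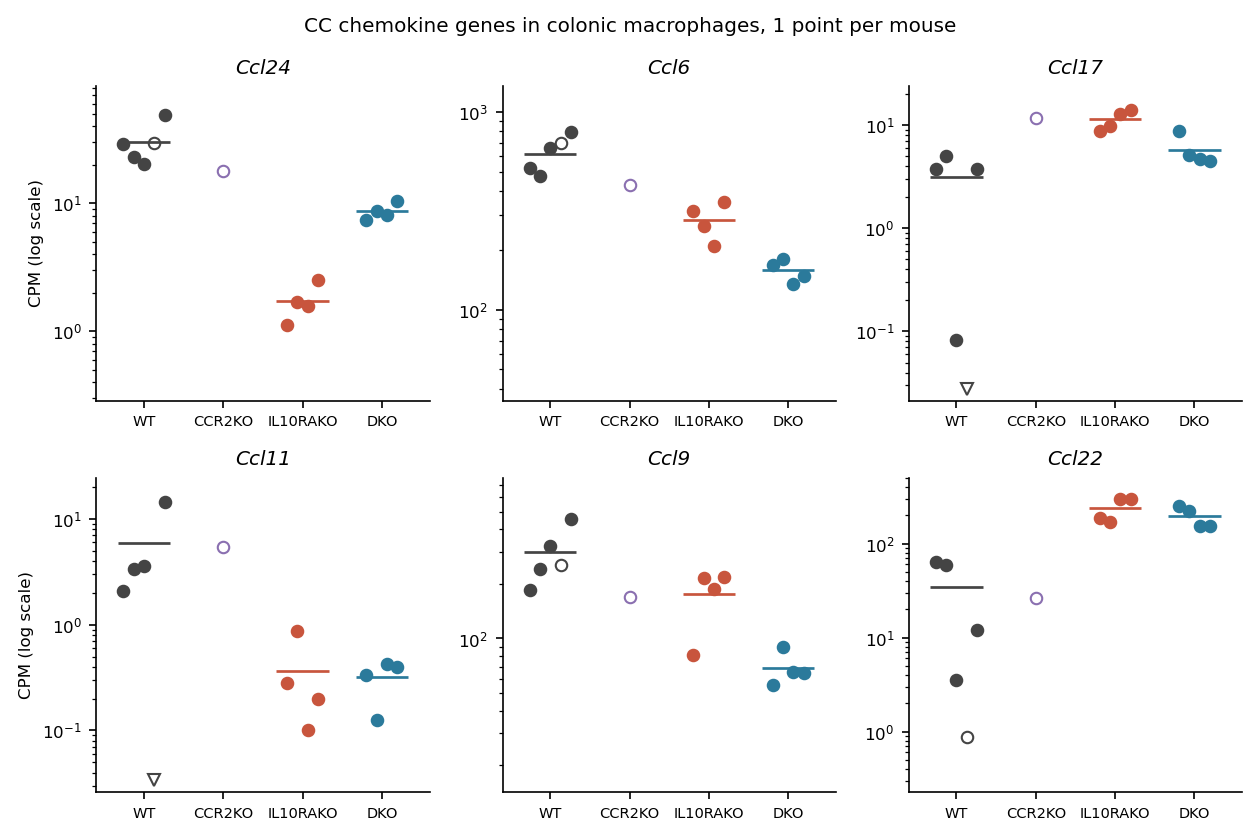
CPM on a log scale (vertical axis) of the 6 chemokine genes in each of 14 libraries by genotype (horizontal axis). Filled points are the 12 libraries compared, horizontal bars their means, open points WT mouse 11 and the CCR2KO mouse, and triangles at the bottom edge a library at 0 reads. *Ccl24* forms 3 separate bands, with WT at 20.5 CPM or more, DKO between 7.40 and 10.5 and IL10RAKO at 2.51 or less.

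*Ccl24* was lower in both genotypes that lack *Il10ra* than in WT, and its level in DKO macrophages lay between the others. In WT mice 4, 5, 10 and 13 it was at 29.1, 23.0, 20.5 and 48.7 CPM (30.3 ± 12.8, SD, n = 4), from 393 to 732 reads. In IL10RAKO mice 1, 2, 7 and 8 it was at 1.11, 1.68, 1.57 and 2.51 CPM (1.72 ± 0.582, n = 4), from 16 to 38 reads. In DKO mice 3, 9, 12 and 14 it was at 7.40, 8.65, 8.15 and 10.5 CPM (8.68 ± 1.33, n = 4), from 116 to 213 reads. No 2 of the 3 genotypes overlapped, and DKO mice varied least, with a coefficient of variation of 15.4% against 42.1% in WT and 33.9% in IL10RAKO. WT mouse 11, at 29.5 CPM, lay within the range of the other WT mice. The CCR2KO mouse, at 17.8 CPM, lay below all 5 WT mice and above all DKO mice.

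*Ccl24* was 17.6-fold lower in IL10RAKO than in WT macrophages (log2 fold change −4.14, standard error 0.336, edgeR adjusted p = 2.34e-06) and 3.49-fold lower in DKO (−1.80, 0.297, edgeR adjusted p = 0.000731). DKO exceeded IL10RAKO 5.04-fold, a log2 fold change of 2.33 with a 95% confidence interval from 1.65 to 3.02, which is the difference the gene was selected on. The comparisons with WT use the same IL10RAKO and DKO libraries and share the WT libraries with each other, so they are not independent of that selection.

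*Ccl11*, which fibroblasts are known to express, was low in WT macrophages and close to the detection floor in both other genotypes. WT mice 4, 5, 10 and 13 had 2.10, 3.34, 3.56 and 14.5 CPM (5.88 ± 5.80, SD, n = 4), or 44, 57, 86 and 218 reads. IL10RAKO mice 1, 2, 7 and 8 had 4, 14, 2 and 3 reads (0.362 ± 0.347 CPM, n = 4), and DKO mice 3, 9, 12 and 14 had 6, 2, 6 and 8 reads (0.318 ± 0.135 CPM, n = 4). Every WT library compared was above all 8 of these, and WT mouse 13 stood well above the other 3. A count of 3 reads, taken as the least the depth can show, corresponds to 0.124 to 0.211 CPM, and since reads carried no molecular identifiers it covers counting error only. WT mouse 11 had 0 reads of *Ccl11*, which at this depth allows up to 0.220 CPM, and the CCR2KO mouse had 5.43 CPM.

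*Ccl11* passed as lower in IL10RAKO (log2 fold change −4.00, standard error 0.809, edgeR adjusted p = 0.00367) and in DKO (−4.17, 0.815, edgeR adjusted p = 0.00252). Without WT mouse 13 both still passed, at −3.03 (edgeR adjusted p = 0.0199) and −3.21 (0.0133), and without IL10RAKO mouse 2 the value in IL10RAKO was −4.90 (0.00288). With WT mouse 11 in the fit, the call in IL10RAKO was lost (−3.68, edgeR adjusted p = 0.0621). Between DKO and IL10RAKO no difference was detectable at this depth, with an interval from −1.88 to 1.54.

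Fibroblast markers moved with *Ccl11*. The summed level of 6 fibroblast genes (*Col1a1*, *Col1a2*, *Col3a1*, *Dcn*, *Lum* and *Pdgfra*) ranged from 294.2 to 577.1 CPM in the WT libraries compared, from 15.0 to 53.7 in IL10RAKO ones and from 16.1 to 67.0 in DKO ones, and 0 of the 6 was without reads in any library compared. All 6 passed as lower in both genotypes, *Dcn* with log2 fold changes of −3.65 and −3.75 and *Col1a2* with −3.44 and −3.81 in IL10RAKO and DKO, respectively. WT mouse 13, the highest in *Ccl11*, had a sum of 552.8 CPM, and WT mouse 5, with 3.34 CPM of *Ccl11*, had 577.1. WT mouse 11 had 263.2 CPM of fibroblast genes with 0 reads of *Ccl11*, and the CCR2KO mouse had 681.1. The part of fibroblast RNA in the difference of *Ccl11* was not tested. In bulk libraries, fewer cells of a type and less RNA per cell cannot be told apart.

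RNA of eosinophils, the cells that eotaxins attract, was scarce in the 12 libraries compared. The 8 eosinophil markers summed to 10.6 to 17.9 CPM in the 4 WT libraries compared, against 6.98 to 14.6 CPM in IL10RAKO and 4.55 to 10.2 CPM in DKO libraries. The sum was higher in the libraries that entered no comparison, at 44.3 CPM in WT mouse 11, of which *Siglecf* made up 30.1, and at 51.3 CPM in the CCR2KO mouse. Of the 5 markers tested, 0 passed in either direction against WT (edgeR). The third eotaxin gene, *Ccl26*, the neighbour of *Ccl24*, had 0 reads in all 14 libraries.

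*Ccl6* stepped down from WT to IL10RAKO to DKO with no overlap between genotypes. WT mice 4, 5, 10 and 13 had 520.9, 477.4, 654.1 and 795.5 CPM (612 ± 143.6, SD, n = 4). IL10RAKO mice 1, 2, 7 and 8 had 315, 266.3, 209.9 and 352.3 CPM (285.9 ± 61.7, n = 4). DKO mice 3, 9, 12 and 14 had 168.2, 181.5, 135.3 and 149.1 CPM (158.5 ± 20.4, n = 4). The lowest IL10RAKO mouse was thus above the highest DKO mouse. WT mouse 11 had 695.4 CPM and the CCR2KO mouse 428.8, below all 5 WT mice.

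The decrease of *Ccl6* passed in IL10RAKO (2.14-fold, log2 fold change −1.10, standard error 0.199, edgeR adjusted p = 0.00171) and in DKO (3.86-fold, −1.95, 0.204, edgeR adjusted p = 1.82e-05). DKO against IL10RAKO gave −0.85 with a 95% confidence interval from −1.28 to −0.43, which did not pass in edgeR after adjustment over all genes (adjusted p = 0.436). In DESeq2 the same difference passed, with −0.84 and an adjusted p of 0.0257.

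*Ccl9* was lower in DKO than in WT, while IL10RAKO overlapped WT. WT mice 4, 5, 10 and 13 had 184, 241.8, 325.6 and 455.1 CPM (301.6 ± 117.7, SD, n = 4). IL10RAKO mice 1, 2, 7 and 8 had 81.1, 214.7, 188.6 and 219.6 CPM (176 ± 64.7, n = 4). DKO mice 3, 9, 12 and 14 had 55.1, 89.3, 64.9 and 64.1 CPM (68.4 ± 14.7, n = 4). IL10RAKO mouse 1 lay among the DKO mice, and the other 3 IL10RAKO mice lay above all of them. *Ccl9* was at 253.3 CPM in WT mouse 11 and at 168.6 CPM in the CCR2KO mouse.

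Against WT, *Ccl9* passed in DKO (log2 fold change −2.14, standard error 0.325, edgeR adjusted p = 0.000374) and not in IL10RAKO (−0.78, 0.313, edgeR adjusted p = 0.113). Without WT mouse 4 the difference in IL10RAKO passed, at −0.95 (edgeR adjusted p = 0.0450), and it also passed with library totals in place of TMM, at −1.11 (0.0224). DKO was 2.57-fold lower than IL10RAKO (−1.36, 95% confidence interval −2.04 to −0.68), which is the difference *Ccl9* was selected on.

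*Ccl6* and *Ccl9* could be counted apart. Of the 31-base words in the annotated transcripts, 1.02% in *Ccl6* and 3.75% in *Ccl9* occurred in another gene, and 0 were shared between the members. Over the 12 libraries the log2 CPM of the pair had a Pearson correlation of 0.863, and of 0.310 once each library was set against its genotype mean. Both figures are descriptions over libraries that share their genotypes.

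*Ccl22* was several-fold higher in both genotypes that lack *Il10ra* than in WT, where the mice differed widely. WT mice 4, 5, 10 and 13 had 64.4, 58.5, 3.56 and 12.1 CPM (34.6 ± 31.2, SD, n = 4). IL10RAKO mice 1, 2, 7 and 8 had 189.2, 167.9, 295.8 and 296.8 CPM (237.4 ± 68.5, n = 4). DKO mice 3, 9, 12 and 14 had 252.4, 221.2, 154.6 and 154.4 CPM (195.7 ± 49.2, n = 4). WT did not overlap either genotype, and IL10RAKO and DKO overlapped each other. WT mouse 11, at 0.88 CPM, was the lowest of all libraries, and the CCR2KO mouse, at 26.7, lay within WT.

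The increase of *Ccl22* passed in IL10RAKO (log2 fold change 2.78, standard error 0.633, edgeR adjusted p = 0.00793) and in DKO (2.50, 0.627, edgeR adjusted p = 0.0124). The difference of DKO from IL10RAKO was −0.28, with a 95% confidence interval from −1.55 to 0.99.

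*Ccl17* was scarce in all libraries, and its increase did not pass. WT mice 4, 5, 10 and 13 had 3.77, 4.98, 0.0828 and 3.73 CPM (3.14 ± 2.12, SD, n = 4), from 79, 85, 2 and 56 reads. IL10RAKO mice 1, 2, 7 and 8 had 8.77, 9.84, 12.8 and 14.0 CPM (11.3 ± 2.45, n = 4). DKO mice 3, 9, 12 and 14 had 8.72, 5.10, 4.64 and 4.45 CPM (5.73 ± 2.01, n = 4). Each IL10RAKO mouse was above all WT and DKO mice compared, though IL10RAKO mouse 1 and DKO mouse 3 were nearly level, and DKO overlapped WT. WT mouse 11 had 0 reads, while the CCR2KO mouse had 11.8 CPM, within the range of IL10RAKO.

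The log2 fold change of *Ccl17* was 1.86 in IL10RAKO (standard error 0.652, edgeR adjusted p = 0.0693) and 0.88 in DKO (95% confidence interval −0.50 to 2.25, edgeR adjusted p = 0.382). Without WT mouse 10, which had 2 reads, the value in IL10RAKO passed at 1.45 (edgeR adjusted p = 0.00877). It also passed in DESeq2 (1.86, adjusted p = 0.0183) and with the bias-adjusted deviance of edgeR 4 (1.94, 0.00982), which called 20.1% and 19% of all genes in either direction. Between DKO and IL10RAKO it was −0.99, with an interval from −2.34 to 0.37.

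Of the CCR4 ligands, *Ccl22* had the same order as the summed dendritic cell markers among WT and among DKO mice. The IL10RAKO mice showed no such order. *Ccl17* and *Ccl22* had a Pearson correlation of 0.874 over the 12 libraries and of 0.850 after each genotype mean was taken off, and WT mouse 10 was the lowest of the 12 in both genes. The 10 dendritic cell markers summed to 1260, 911.6, 343.6 and 416.8 CPM in WT mice 4, 5, 10 and 13. The same sum was 1699 to 2145 CPM in IL10RAKO and 1229 to 2094 in DKO libraries, so the WT mice low in *Ccl22* were also low in these markers. Of the WT mice compared, only mouse 10 was low in *Ccl17*, as mouse 13 had 3.73 CPM, close to mouse 4 at 3.77. DKO mice 3, 9, 12 and 14 had sums of 2094, 1999, 1378 and 1229 CPM. Their *Ccl22* had the same order, at 252.4, 221.2, 154.6 and 154.4 CPM, with mice 12 and 14 nearly level. So did their *Ccl17*, at 8.72, 5.10, 4.64 and 4.45 CPM. Among IL10RAKO mice, mouse 8 had the lowest sum (1699 CPM) with 296.8 CPM of *Ccl22* and the highest *Ccl17* (14.0 CPM). Mouse 7 had the highest sum (2145 CPM) with nearly the same *Ccl22* (295.8 CPM) and 12.8 CPM of *Ccl17*. Mouse 2 had a sum of 1955 CPM with the lowest *Ccl22*. In WT mouse 11 the sum was 237.4 CPM, with 4 of the 10 markers at 0 reads, and in the CCR2KO mouse it was 891.6, where *Ccl17* was in the range of IL10RAKO and *Ccl22* in that of WT. The sum rests mostly on *Ccr7*, with means of 505.7, 1530 and 1356 CPM in WT, IL10RAKO and DKO. *Flt3* and *Zbtb46*, which define dendritic cells, were at 35.8 and 13.1 CPM in WT and did not pass against it in either genotype. Against WT, 5 of the 10 passed as higher and 1 as lower in IL10RAKO, and 4 and 1 in DKO, among them *Xcr1* at 2.45 and 1.12, *Fscn1* at 1.74 and 2.51 and *Batf3* at −0.66 and −1.42 (*Xcr1* in DKO did not pass). The part of dendritic cells in the level of *Ccl17* and *Ccl22* was not tested.

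**Figure D2:**
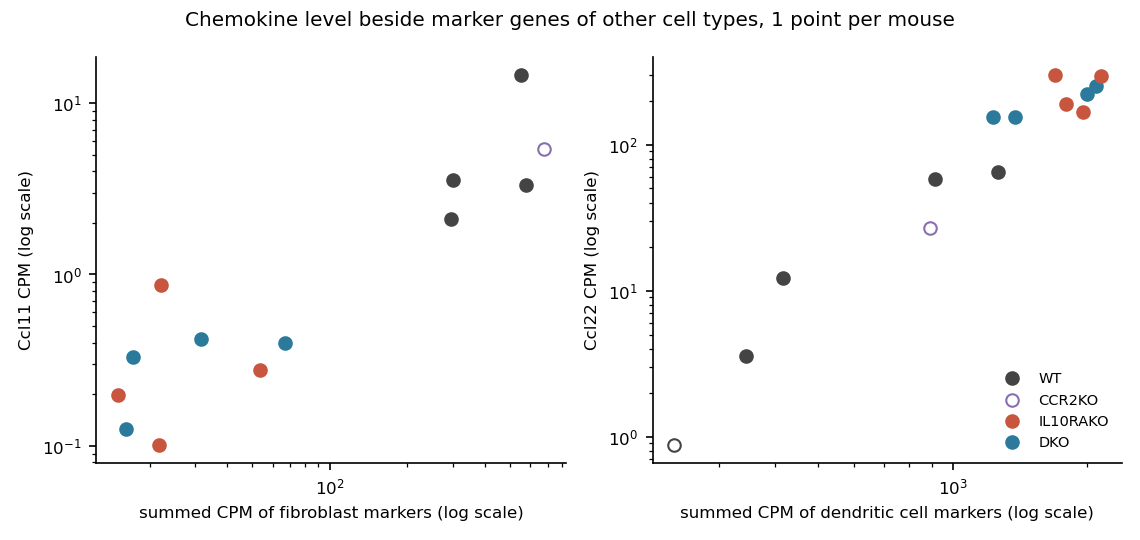
*Ccl11* against the summed CPM of 6 fibroblast markers and *Ccl22* against that of 10 dendritic cell markers, 1 point per library, all axes on a log scale. Open points are WT mouse 11 (absent on the left, at 0 reads of *Ccl11*) and the CCR2KO mouse. On the left the WT libraries compared stand apart with sums of 294.2 CPM or more, and on the right *Ccl22* is lowest in the libraries with the smallest sums.

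Across the members, 1 passed as higher (*Ccl22*) and 3 as lower (*Ccl24*, *Ccl11* and *Ccl6*) in IL10RAKO against WT, where 8.7% of the 13136 genes tested passed as higher and 7.1% as lower. In DKO against WT, 1 passed as higher (*Ccl22*) and 4 as lower (the same 3 and *Ccl9*), where 9.23% and 9.22% of all genes did. The groups did not overlap for 5 of the 6 members in IL10RAKO against WT and for 5 in DKO against WT, against 18.2% and 22.2% of all genes. The median log2 fold change of the members was −0.94 in IL10RAKO and −1.88 in DKO, beside −0.07 and −0.06 over all genes. As *Ccl24* and *Ccl9* were selected on libraries used here, these counts describe the members and no more.

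Between DKO and IL10RAKO, 6 of all 13136 genes passed (0.0457%) and 0 of the 4 members that were not selected on this difference did. *Ccl6* was the only 1 of the 4 with an unadjusted p under 0.05 in edgeR (0.00073), as were 388 of all genes, and it was the 1 that passed in DESeq2, where 24 genes (0.183% of those with an adjusted p) did. Of the same 4 members, the groups did not overlap for 2, *Ccl6* and *Ccl17*, as for 2.41% of all genes. They did not overlap for *Ccl24* either, which was selected on this difference. *Ccl24* is the only member with a higher mean in DKO than in IL10RAKO.

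**Figure D3:**
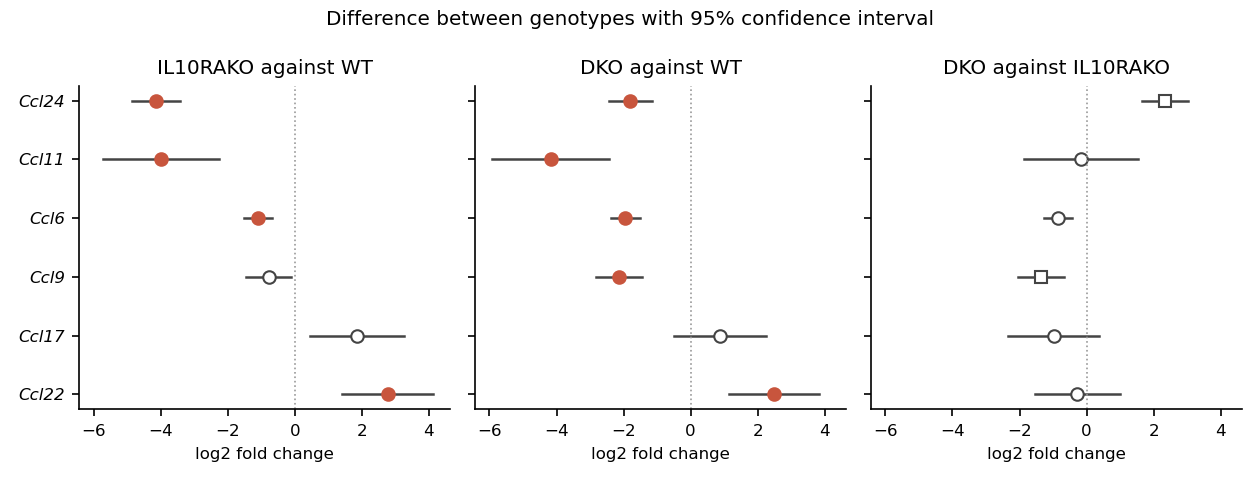
Log2 fold changes (horizontal axis) of the 6 genes in 3 comparisons of genotypes, with bars for the 95% confidence interval of the fit over 12 libraries (n = 4 mice per genotype). Filled circles passed at an adjusted p under 0.05, open circles did not, and squares mark *Ccl24* and *Ccl9*, which were selected on the third comparison and not tested in it. *Ccl24* lies at −4.14 in IL10RAKO and −1.80 in DKO, and *Ccl22* at 2.78 and 2.50.

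Of 23 CC chemokine ligand genes listed, 15 passed the filter on low counts, and those that passed the test were mostly lower than in WT. In IL10RAKO 2 were higher and 6 lower, with a median of −0.78, and in DKO 2 were higher and 7 lower, with a median of −1.45. Outside the 6 members, 1 was higher and 3 were lower in each genotype, out of 9 tested. The 3 were ligands of CCR2: *Ccl2* at −2.08 and −3.51 in IL10RAKO and DKO, *Ccl7* at −2.59 and −3.95, and *Ccl12* at −1.98 and −3.02. *Ccl5*, which attracts T cells, was higher at 4.84 and 4.43. *Ccl3* and *Ccl4*, abundant ligands of CCR1 at means of 589.1 and 657.7 CPM in WT, did not pass in either genotype, and neither did *Ccl8*, *Ccl25* and *Ccl27a*. Of the 8 genes not tested, 4 had 0 reads in all libraries, *Ccl26* and the 3 copies of *Ccl21*. *Ccl21a* and *Ccl21b* are each annotated at more than a single place, and how reads with several alignments were counted is not known. Their 0 reads therefore need not mean absence.

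**Figure D4:**
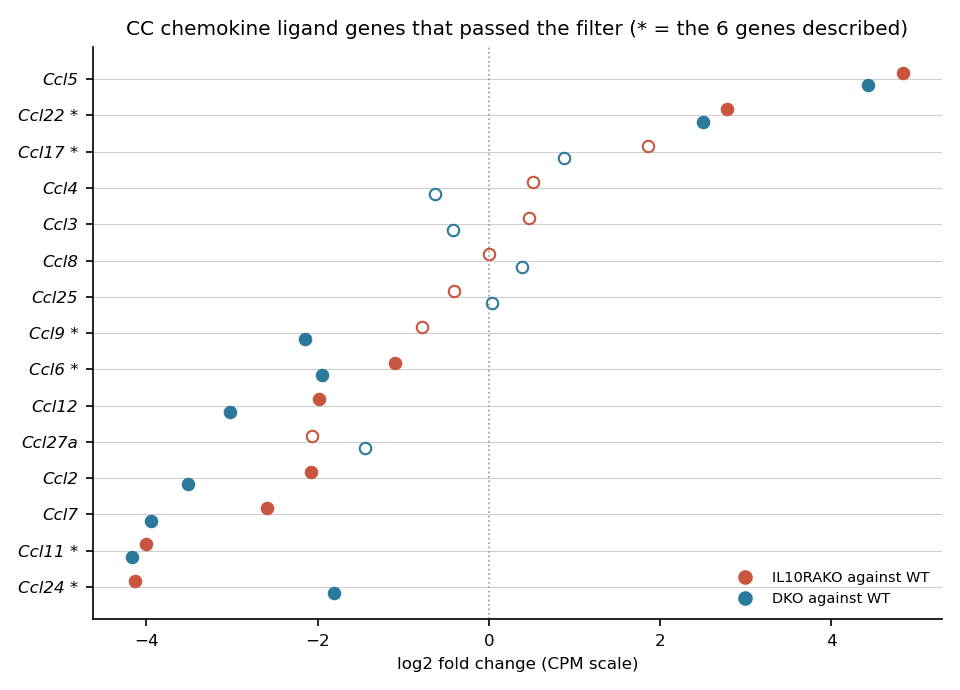
Log2 fold change against WT (horizontal axis) of the 15 CC chemokine ligand genes tested, in IL10RAKO (red) and DKO (blue), ordered by the value in IL10RAKO. Filled points passed at an adjusted p under 0.05 in edgeR and asterisks mark the 6 genes described. *Ccl24*, at −4.14, is the lowest in IL10RAKO, and *Ccl5* is the highest in both.

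Among 7 receptors that bind these or related chemokines, 2 were higher and 1 was lower in IL10RAKO, and 1 was higher and 1 lower in DKO. *Ccr1*, the receptor for *Ccl6* and *Ccl9*, was higher in IL10RAKO (1.15, edgeR adjusted p = 0.000679) and not in DKO (0.15, edgeR adjusted p = 0.620). The difference of DKO from IL10RAKO was −0.998 (edgeR adjusted p = 0.125). *Ccrl2*, an atypical receptor known to bind chemerin, was higher in both (2.24 and 2.12), at means of 846.9, 4006 and 3686 CPM in WT, IL10RAKO and DKO. *Ackr1*, an atypical receptor of endothelium and red cells, was lower in both (−5.66 and −3.65) from a mean of 5.97 CPM in WT. WT mice 4, 5, 10 and 13 had 95, 0, 133 and 208 reads of *Ackr1*. WT therefore overlapped both other genotypes, where each library had 12 reads or fewer. *Ccr3* and *Ccr4*, the receptors for the eotaxins and for *Ccl17* and *Ccl22*, were at 1.04 and 0.998 CPM in WT and did not pass, and neither did *Ackr2* and *Ackr4*, at 1.97 and 3.31 CPM.

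The genes known to respond to IL-4 and IL-13 moved in both directions. Of the 3 members among them, *Ccl24* was lower and *Ccl22* higher, and *Ccl17* did not pass. Without *Ccl24*, *Ccl17* and *Ccl22*, 16 were tested, of which 6 were higher and 3 lower in IL10RAKO and 6 higher and 5 lower in DKO, with medians of −0.04 and −0.22. *Tgm2*, a transglutaminase, was higher at 2.91 and 2.82, and *Pdcd1lg2*, the ligand of PD-1, at 2.89 and 3.09. *Retnla*, a secreted marker of alternatively activated macrophages, was lower at −5.89 and −10.68. In DKO mice 3, 9 and 12 it had 0 reads, and mouse 14 had 14 reads, so the size of the second value is uncertain. *Clec10a*, a lectin, was lower at −1.80 in DKO, with −0.57 in IL10RAKO, which did not pass.

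*Ccl24* also belongs to a list of genes typical of resident macrophages near vessels, most of which fell with it. Of the other 17 genes, 14 were lower and 1 was higher in IL10RAKO and 15 were lower and 1 higher in DKO, with medians of −4.20 and −4.44. *F13a1*, a coagulation factor subunit, was lower at −4.20 and −5.09 and *Ednrb*, an endothelin receptor, at −4.66 and −5.36, while *Cd38* was higher at 1.32 and 1.46. For these genes the median from IL10RAKO to DKO was −0.55 and 0 of the 17 passed (edgeR). *Ccl24* was higher in DKO by 2.33, but it was selected on this difference, so its departure from the list is no separate finding. The summed level of the list was between 2309 and 3141 CPM in WT, between 724.6 and 1067 in IL10RAKO and between 781.8 and 889.3 in DKO. *Cd38*, which was higher, made up the largest part of the sum in IL10RAKO and DKO, at means of 383.7 and 422.9 CPM against 154 in WT.

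Markers of other blood cells were compared as well. Of 6 neutrophil and monocyte markers tested, 5 were higher and 0 lower in each genotype, among them *Ly6c2* (4.06 and 3.65) and *Csf3r* (1.18 and 1.05). In IL10RAKO, *S100a8*, *S100a9* and *Ngp* were at 42.8, 40.8 and 10.2 CPM in mouse 2. The other IL10RAKO mice had at most 3.76, 2.38 and 0.278 CPM. The summed level of the list was between 81.7 and 127.7 CPM in WT, between 175.4 and 489.5 in IL10RAKO and between 253.5 and 356.3 in DKO. It rests mostly on *Csf3r*, with means of 87.3, 197.7 and 181.3 CPM in the same order. Of 7 T and NK cell markers, 0 passed in IL10RAKO and 1, *Nkg7* (2.01), was higher in DKO. The part of these cells in the level of the chemokines was not tested.

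The genes whose pattern over the 12 libraries was most like that of *Ccl24* were *Afap1l2* (Pearson correlation of log2 CPM 0.947), *Ncam1* (0.928) and *Rab34* (0.918). All 3 were scarce, with means of 4.12, 5.90 and 6.71 CPM in WT, and within genotypes the correlations were 0.391, 0.657 and 0.758. For *Ccl9* they were *D730003I15Rik* (0.953), *Baiap2* (0.926) and *Lgi4* (0.924), and within genotypes 0.843, 0.902 and 0.743. *Baiap2* was at 63.0, 53.7 and 35.8 CPM in WT, IL10RAKO and DKO. These genes were ranked among all genes tested on the libraries that *Ccl24* and *Ccl9* were selected on, and the libraries share their genotypes.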

How the data were processed

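The deposited counts are whole numbers of reads per gene in 14 libraries. Per the labels and methods, the authors prepared SmartSeq v4 cDNA, demultiplexed with bcl2fastq 2.20, aligned reads to mm10 with STAR 2.5.1b and used edgeR 3.34.0. The counting annotation, strand setting and treatment of reads with several alignments are not given in the sources used here. The authors also deposited edgeR pseudocounts, a score per gene adjusted to a common library size, for 12 libraries. They were used here to find which libraries the study compared. No per-sample column was set aside (0 unused).

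The analysis used edgeR 4.0.16 (with limma 3.58.1) under R 4.3.3. The filter filterByExpr, given the genotypes and a minimum count of 10, left 13136 of 24982 genes. After TMM scaling, a single glmQLFit model held 3 genotypes (n = 4 mice each), and glmQLFTest gave each comparison. Benjamini-Hochberg adjustment ran over all genes tested, with calls at 0.05. DESeq2 1.42.0, other scalings, filters, deviances and sets of libraries were alternatives. Groups came from the labels, which give no batch, sex or litter.

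Members, lists and tests were chosen with earlier results of these data known. The genes named are the members, CC ligands that passed against WT, the receptors, the 2 genes with the smallest adjusted p in each direction of other lists, and the 3 genes most like *Ccl24* and *Ccl9*. *Mertk*, *Siglecf*, *Ccr7*, *Flt3*, *Zbtb46*, *S100a8*, *S100a9*, *Ngp*, *Ccl3*, *Ccl4*, *Ccl8*, *Ccl25* and *Ccl27a* were named after their values were seen. *Trac* was not matched in the count table, and 1 further receptor of the list is not reported here. Positions, exon lengths and transcripts are those of GENCODE on GRCm38, and promoters of RefSeq were aligned with Biopython 1.88. Figures were drawn with matplotlib 3.10.9.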

Additional observations from a re-analysis of the deposited data

Results flagged for a closer look

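Among 18 groups of 4 libraries (6 genes in 3 genotypes), 2 held a library far from the other 3 by Dixon's test on the log2 CPM scale, and chance alone flags about 1 group in 20. *Ccl9* in IL10RAKO mouse 1 was at 81.1 CPM, with a gap of 0.847 of the group's range. *Ccl17* in WT mouse 10 was at 0.0828 CPM, from 2 reads, with a gap of 0.919 of the range.

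The CCR2KO mouse, which enters no comparison, had 11.8 CPM of *Ccl17*, above the highest WT mouse compared, at 4.98 CPM. It has no replicate, so the difference was not tested.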

How the results depend on the processing

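Of the fold changes of the members under each alternative, 304 kept their direction and side of the threshold, 6 came to pass, 1 no longer passed and 2 reversed. The reversed values are those of *Ccl11* between DKO and IL10RAKO, at 0.73 without IL10RAKO mouse 2 and 0.08 without DKO mouse 9, from 14 reads or fewer in every library of both genotypes, and leaving out single mice gave −0.48 to 0.73. With DESeq2, 1 of the 4 members not selected on the difference between DKO and IL10RAKO passed (*Ccl6*), where DESeq2 called 24 genes in all against 6 in edgeR. Leaving out each mouse in turn gave 4 to 5 members that passed in IL10RAKO and 5 in DKO against WT, 8 to 10 and 9 to 10 CC ligands, and 0 of the 4 members between DKO and IL10RAKO. The difference of *Ccl24* between DKO and IL10RAKO then ranged from 2.18 to 2.57, and that of *Ccl9* from −1.60 to −1.24. Library totals without TMM moved the median of all genes to −0.38 in IL10RAKO and −0.32 in DKO. No paired analysis was possible because the replicate numbers were given in accession order and the genotypes hold different mice. Depth limits *Ccl11* in both genotypes without *Il10ra* and *Ccl17* in WT mouse 10. The p-values of edgeR rest on the spread between mice within genotypes (n = 4 each), taken over 12 libraries and moderated across genes.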
